A study of Mus musculus with 15 samples.

Results

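The nuclear genes of respiratory complex I were followed in mammary cells of mice that had received PBS, valproic acid (VPA) or 5-azacytidine (AzaC). Members were the genes whose only symbol in the platform annotation begins with Ndufa, Ndufb, Ndufc, Ndufs or Ndufv, each read from its brightest probe set by the mean of the 15 arrays. This gave 39 genes of 12393. They comprise 6 subunits of the catalytic core, 8 accessory subunits of the peripheral arm, 18 accessory subunits of the membrane arm, the acyl carrier protein Ndufab1, 5 assembly factors (Ndufaf1, Ndufaf3, Ndufaf4, Ndufaf5 and Ndufaf7) and Ndufa4. Ndufa4 carries a complex I name but is a subunit of cytochrome c oxidase, and the assembly factors are not part of the finished enzyme. The 7 subunits encoded by mitochondrial DNA are not analysed here.

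Complex I is the entry point of electrons from NADH into the respiratory chain. Its peripheral arm, which reaches into the mitochondrial matrix, binds NADH and flavin and passes electrons along iron-sulphur clusters to ubiquinone, and its membrane arm pumps protons. Accessory subunits surround the core in both arms, and assembly factors help to build the modules and then leave. In the mammary gland the alveolar cells gain mitochondria as they prepare to secrete milk.

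The labels describe mammary epithelial cells from digested glands of C57BL/6 females, either virgin at 9 weeks or pregnant at day 21. Mice received PBS, the DNA methylation inhibitor AzaC or the histone deacetylase inhibitor VPA into the peritoneum; dose, schedule and time since injection are not given. The groups labelled pregnant hold 2 PBS, 3 AzaC and 3 VPA arrays, and those labelled virgin hold 2 PBS, 3 AzaC and 2 VPA arrays. Nothing in the labels says whether replicates were separate mice, so p-values measure only the spread between these samples, which may be technical; with so few arrays per group their precision is low. RNA was measured on Affymetrix arrays as processed signals that were taken as log2, so that a difference of 1 is a 2-fold difference. Levels of different probe sets were not compared with each other.

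The labels were checked against marker genes. Beta-casein (Csn2) read 13.69 to 13.94 on the 7 arrays labelled virgin and 13.69 to 14.03 on the 8 labelled pregnant, and whey acidic protein (Wap) read 13.41 to 14.06 and 13.53 to 14.18. Milk transcripts were thus at the top of the scale under both stage labels, and their ranges overlapped. All 8 luminal epithelial markers were above 0 on every array, but so were all 6 markers of skeletal muscle, whose mean lay between 10.67 and 13.41 over the 15 arrays. Array medians ran from 7.22 to 7.47. The control probe sets for the 3' and 5' ends of Gapdh serve as a rough gauge of RNA integrity and differed most on virgin PBS replicate 2 (1.23), pregnant AzaC replicate 1 (0.85) and pregnant VPA replicate 3 (0.82), against -0.17 to 0.47 on the others.

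Promoter sequences were searched because the members moved together. The transcription factor NRF1 is a known activator of nuclear genes for the respiratory chain, and its palindromic site carries CpG dinucleotides. RefSeq windows of 250 bases before to 50 after the start (GRCm38.p6) were found for 36 members, not for Ndufa2, Ndufb9 and Ndufs1. The NRF1 motif, searched on both strands as GCGC, then any base, then TGCGC, was present in 6 of the 36 (16.7%) against 4.60% of 32851 windows of the same length. A gene can have several windows. For this and the other motifs a member counted if any of its windows matched, whereas the background is a share of single windows. These shares are therefore of unlike units, and a background by gene was not computed. The 6 were Ndufaf4, Ndufs5, Ndufaf5, Ndufa5, Ndufa6 and Ndufa8. Stretches are printed for the 4 whose motif lies wholly before the start, of which the first 2 are among the genes that fell with AzaC. They run 5′ to 3′ on the strand of the gene, with the motif in capitals. They cover, in order, chr4:24897935-24898014 (+), chr4:123718240-123718319 (−), chr6:24527691-24527751 (−) and chr2:36049339-36049403 (−).
Ndufaf4: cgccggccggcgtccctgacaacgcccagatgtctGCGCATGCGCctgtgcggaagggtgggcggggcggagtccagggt
Ndufs5: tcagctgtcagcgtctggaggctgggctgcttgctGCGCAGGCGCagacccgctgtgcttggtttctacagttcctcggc
Ndufa5: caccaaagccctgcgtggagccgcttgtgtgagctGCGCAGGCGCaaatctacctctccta
Ndufa8: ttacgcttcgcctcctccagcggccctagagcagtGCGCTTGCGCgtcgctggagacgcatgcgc

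In Ndufaf5 and Ndufa6 the motif (GCGCATGCGC and GCGCGTGCGC) lies just after the start. The YY1 motif AAGATGGC, which on the coding strand includes a start-codon sequence, was also present in 6 members (16.7%, against 2.75% of windows): Ndufa3, Ndufa9, Ndufb8, Ndufc1, Ndufs4 and Ndufs7. All 6 matches lay between bases 22 and 45 after the start, on the strand of the gene. The GABPA motif CCGGAAG was found in 5 members (13.9%, against 8.86%) and the ERR motif AAGGTCA in 2 (5.56%, against 4.72%), on either strand. On the strand of the gene alone, NRF1 was found in 4 members, GABPA in 3, ERR in 1 and YY1 in the same number as before. The members' windows held a median of 20 CpG dinucleotides (8 to 39), against 7 over all 27025 genes with RefSeq windows. These are more than the 12393 genes measured. Matches are letters in a window and do not show binding.

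After AzaC in arrays labelled pregnant, transcripts of complex I were lower across both arms of the enzyme. The difference from PBS was negative for 37 of 39 members, with a median of -0.68 against 0.04 over all genes, and the AzaC arrays lay below both PBS arrays without overlap for 35 members (20.9% of all genes did so). By limma with Benjamini-Hochberg adjustment over all genes, 8 members fell and none rose, where 3.81% of all genes fell and 3.76% rose. Without adjustment, 25 had a lower level at p under 0.05 (12.2% of all genes). The mean over the 39 members was 10.76 and 10.75 on the PBS arrays and 10.02, 10.17 and 10.11 on the AzaC arrays, so the nearest arrays of the groups were 0.59 apart. The 2 members higher on all 3 AzaC arrays were assembly factors, Ndufaf3 and Ndufaf7, with gaps of only 0.06 and 0.13. Of all 12393 genes, 2917 were higher without overlap. Ndufa4 and Ndufa7 overlapped.

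**Figure D1:**
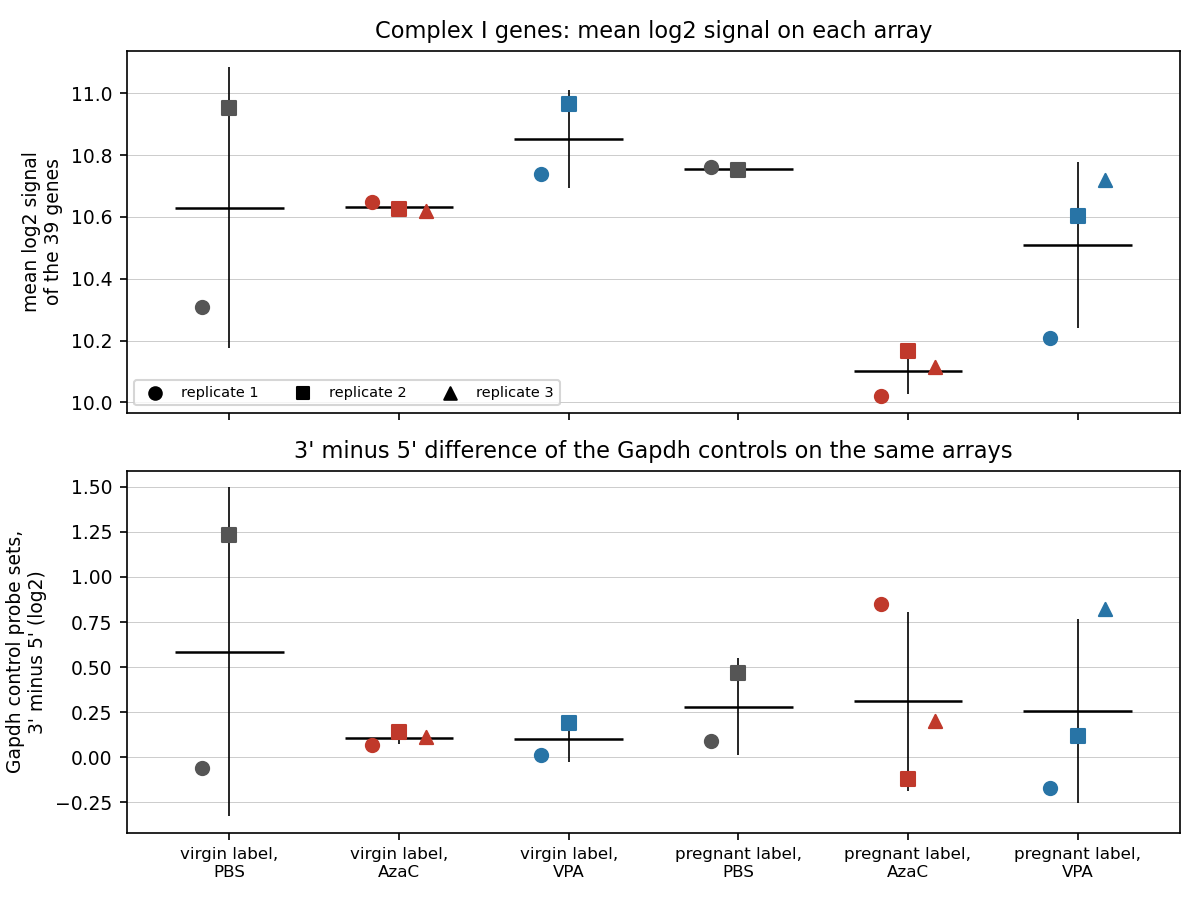
Mean log2 signal of the 39 genes on each of the 15 arrays (upper panel) and the 3' minus 5' difference of the Gapdh control probe sets on the same arrays (lower panel), by stage label and injection. Points are arrays, horizontal lines are group means and vertical lines are ± 1 SD; pregnant AzaC replicates lie at 10.02 to 10.17, below all other arrays.

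All 6 core subunits read lower on every pregnant AzaC array than on either PBS array, with a median change of -0.70. Ndufv2, an iron-sulphur subunit of the NADH-oxidising module, read 11.48 and 11.11 with PBS and 9.91, 10.51 and 10.46 with AzaC. The lowest PBS array stood 0.60 above the highest AzaC array, and Ndufv2 fell by 1.00 ± 0.26 (SE; limma adjusted p = 0.0400). Ndufs8, which holds iron-sulphur clusters on the way to ubiquinone, read 10.91 and 10.72 against 9.74, 10.02 and 10.08, a change of -0.87 that did not pass (adjusted p = 0.171). The other core subunits did not pass in this fit either, though Ndufs8, Ndufs1 and Ndufv1 each passed in some other setting. Ndufs1, the large subunit with several iron-sulphur clusters, read 9.06 and 9.33 with PBS and 8.19, 8.62 and 8.67 with AzaC (-0.70 ± 0.22 SE, limma adjusted p = 0.0721). Ndufv1, which binds NADH and flavin, read 11.01 and 11.21 with PBS and 10.43, 10.43 and 10.40 with AzaC (-0.69 ± 0.26 SE, limma adjusted p = 0.125). Its AzaC arrays were the most even of any core subunit. Ndufs3, of the ubiquinone-binding module, read 11.02 and 10.91 against 10.12, 10.58 and 10.45 (-0.58 ± 0.19 SE, limma adjusted p = 0.0891). Ndufs7, which carries the last iron-sulphur cluster before ubiquinone, read 11.33 and 10.98 against 10.21, 10.77 and 10.74 (-0.58 ± 0.25 SE, limma adjusted p = 0.171). Ndufv2 thus had the largest difference of the core and Ndufs3 and Ndufs7 the smallest, and 1 of 6 fell by the test.

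Among the 8 accessory subunits of the peripheral arm the median change was -0.69 and 2 fell. Ndufa9, which sits near the junction of the arms, read 10.93 and 10.82 with PBS and 9.98, 10.21 and 10.23 with AzaC. Its groups were far apart for their spread, and the change was -0.74 ± 0.17 (SE; limma adjusted p = 0.0272). Ndufv3, a small subunit of the NADH-oxidising module, read 12.73 on both PBS arrays and 11.83, 12.19 and 11.87 with AzaC, a fall of 0.77 ± 0.18 (SE; limma adjusted p = 0.0314). Its 2 PBS arrays were the same to 2 decimals. The smallest differences of the arm were those of Ndufa6 (-0.12), Ndufa7 (-0.25) and Ndufs4 (-0.31), none past the threshold. Ndufs4, whose loss causes mitochondrial disease, read 10.08 and 10.20 with PBS and 9.94, 9.78 and 9.77 with AzaC, and its 3 probe sets disagreed, with differences of -0.31, -0.65 and 0.66.

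In the membrane arm all 18 accessory subunits lay lower without overlap, with a median change of -0.67. Ndufb9 read 12.47 and 12.05 with PBS and 11.10, 11.55 and 10.99 with AzaC, and fell by 1.05 ± 0.25 (SE; limma adjusted p = 0.0309). Ndufs5, which faces the intermembrane space, read 10.77 and 10.49 against 9.70, 9.65 and 9.50, and fell by 1.01 ± 0.26 (SE; limma adjusted p = 0.0393). Both had a clear gap between the groups. A dim probe set of Ndufb9 with a mean of 1.07 went the other way, by 0.58, and another bright one differed by -1.23. With the mean of its 3 probe sets the change of Ndufb9 was -0.57 and did not pass (limma adjusted p = 0.441), and after quantile normalization it was -0.94 (0.0601). The most negative estimate of all members belonged to Ndufc1, which read 11.35 and 11.27 with PBS and 9.91, 10.27 and 10.11 with AzaC, but with -1.21 ± 0.34 (SE) it missed the threshold (limma adjusted p = 0.0510). Ndufa1, a small membrane subunit, had the least negative estimate of this arm at -0.25. Ndufa10 read 10.37 and 10.57 with PBS and 10.08, 10.12 and 10.27 with AzaC, and Ndufb1 read 6.01 and 6.43 against 5.73, 5.96 and 5.42, narrow gaps that did not pass.

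Ndufab1, the mitochondrial acyl carrier protein, serves fatty acid and lipoic acid synthesis and is also built into complex I. It read 11.44 and 11.33 with PBS and 9.81, 10.51 and 10.47 with AzaC, a fall of 1.12 ± 0.25 (SE; limma adjusted p = 0.0265). Its lowest array, AzaC replicate 1, is also the one with the largest Gapdh difference among the pregnant AzaC arrays. Ndufab1 has 2 further probe sets of its own, which differed by only -0.31 and -0.22, the latter dim with a mean of 5.99. A probe set that the annotation gives to both Ndufab1 and Ndufab1-ps differed by -0.99 and was not tested. With the mean of all its own probe sets the change of Ndufab1 was -0.55 and did not pass (limma adjusted p = 0.0975).

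The assembly factors did not move as a block: 3 of 5 had negative changes, 2 fell and the median was -0.26. Ndufaf4, which works with Ndufaf3 on the ubiquinone-binding module, read 9.81 and 9.90 with PBS and 8.63, 9.01 and 8.38 with AzaC. The nearest arrays were 0.80 apart, and Ndufaf4 fell by 1.18 ± 0.19 (SE; limma adjusted p = 0.0113), or 2.27-fold. Its second probe set differed by -1.12. Ndufaf5, which modifies the core subunit Ndufs7, read 7.18 and 6.87 against 5.56, 6.24 and 5.85 and fell by 1.14 ± 0.30 (SE; limma adjusted p = 0.0437). In contrast, Ndufaf3 read 8.41 and 8.19 with PBS and 8.52, 8.47 and 8.57 with AzaC, a change of 0.22 that did not pass (adjusted p = 0.412). Ndufa4, the complex IV subunit, was split between its AzaC arrays (12.33, 11.61 and 11.46, against 11.98 and 12.22 with PBS), with a change of -0.30 (adjusted p = 0.467).

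**Figure D2:**
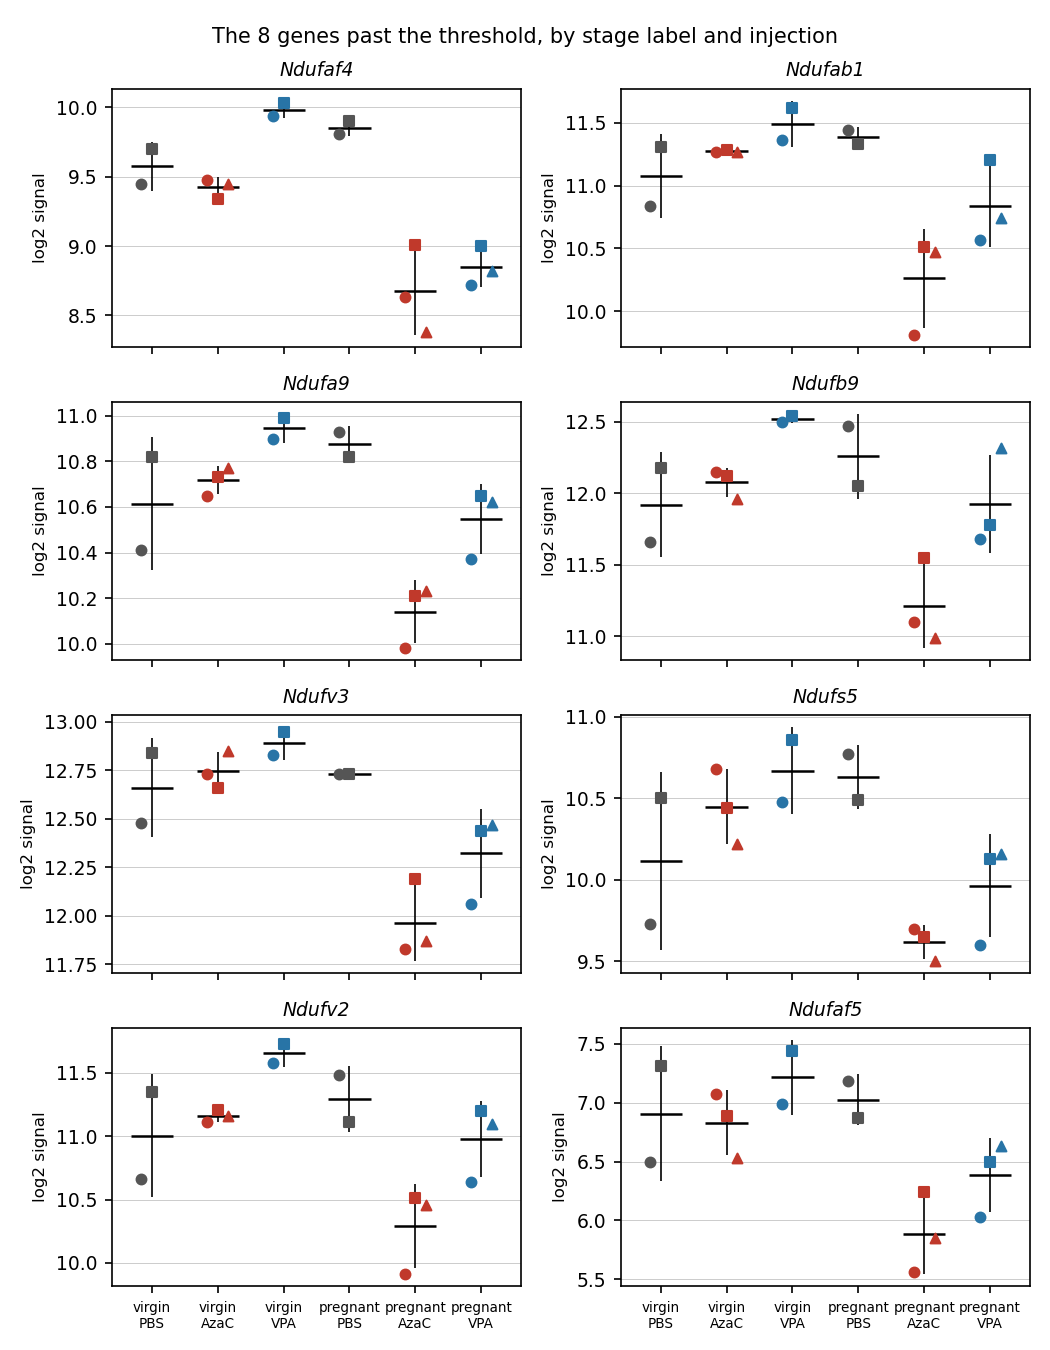
Log2 signal of the 8 genes past the threshold on each array, by stage label and injection. Points are arrays (circle, square and triangle for replicates 1, 2 and 3), horizontal lines are group means and vertical lines ± 1 SD; in every panel the pregnant AzaC arrays lie below both pregnant PBS arrays.

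The calls depended on the arrays fitted, while the size of the shift moved little. Leaving out either pregnant PBS array left 0 members called, leaving out AzaC replicate 1 or replicate 3 left 1 (Ndufaf4), and a fit on only the 5 arrays compared left 0, but the median change stayed between -0.73 and -0.64 in these fits. Without 1 PBS array the other is assumed to vary like the other groups.

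Of the 36 members with a promoter window, the 6 with the NRF1 motif had a median change of -0.96 with AzaC and included 3 of the genes that fell (Ndufaf4, Ndufaf5 and Ndufs5). The 30 without it had a median of -0.65 and included 4. Ndufa6, which has the motif, differed by only -0.12. The 6 with the YY1 motif had a median of -0.68, the 5 with GABPA one of -0.68 and none that fell, and the pair with ERR one of -1.02. These values describe small sets and were not tested against each other.

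VPA in arrays labelled pregnant gave smaller and less even differences for complex I. Of 39 members, 31 had negative changes, with a median of -0.24 against 0.06 over all genes, and 11 lay below PBS without overlap (17.6% of all genes). By limma 1 member fell (2.56% of members) and none rose, where 2.34% of all genes fell and 3.64% rose. The share that fell was near that of all genes, so this count is no result about complex I. At an unadjusted p under 0.05, 5 were lower (9.39% of all genes). The member past adjustment was Ndufaf4, which read 8.72, 9.00 and 8.82 on the VPA arrays and so lay in the range of the AzaC arrays. It fell by 1.01 ± 0.19 (SE; limma adjusted p = 0.0190), and its second probe set differed by -0.82. The core subunits had a median of -0.26, the peripheral accessory subunits -0.23, the membrane accessory subunits -0.18 and the assembly factors 0.04. Ndufv2, for example, read 10.64, 11.20 and 11.10 with VPA, overlapping its PBS arrays. Ndufa6 had the highest estimate (0.17 ± 0.16 SE, limma adjusted p = 0.553), with 11.22, 11.09 and 11.27 against 10.96 and 11.08. The pregnant PBS arrays are shared by the AzaC and VPA comparisons.

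The 3 VPA arrays did not behave alike. The mean over members was 10.21 on VPA replicate 1, in reach of the AzaC arrays, but 10.60 and 10.72 on replicates 2 and 3. Against the PBS mean, 36 members were lower on replicate 1 (median -0.63), 27 on replicate 2 (-0.18) and 17 on replicate 3 (0.06). The order of the means follows the Gapdh difference of these arrays (-0.17, 0.12 and 0.82). The part of that difference in this order was not tested, though other fits took it as a covariate or left replicate 3 out. In the pregnant AzaC group the order was the reverse, with differences of 0.85, -0.12 and 0.20 beside means of 10.02, 10.17 and 10.11. Without VPA replicate 1 the median change was -0.05, and Ndufaf4 missed the threshold (limma adjusted p = 0.0517). The call was also lost without PBS replicate 1 (0.10) or 2 (0.129) and with only the arrays compared (0.0535).

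**Figure D3:**
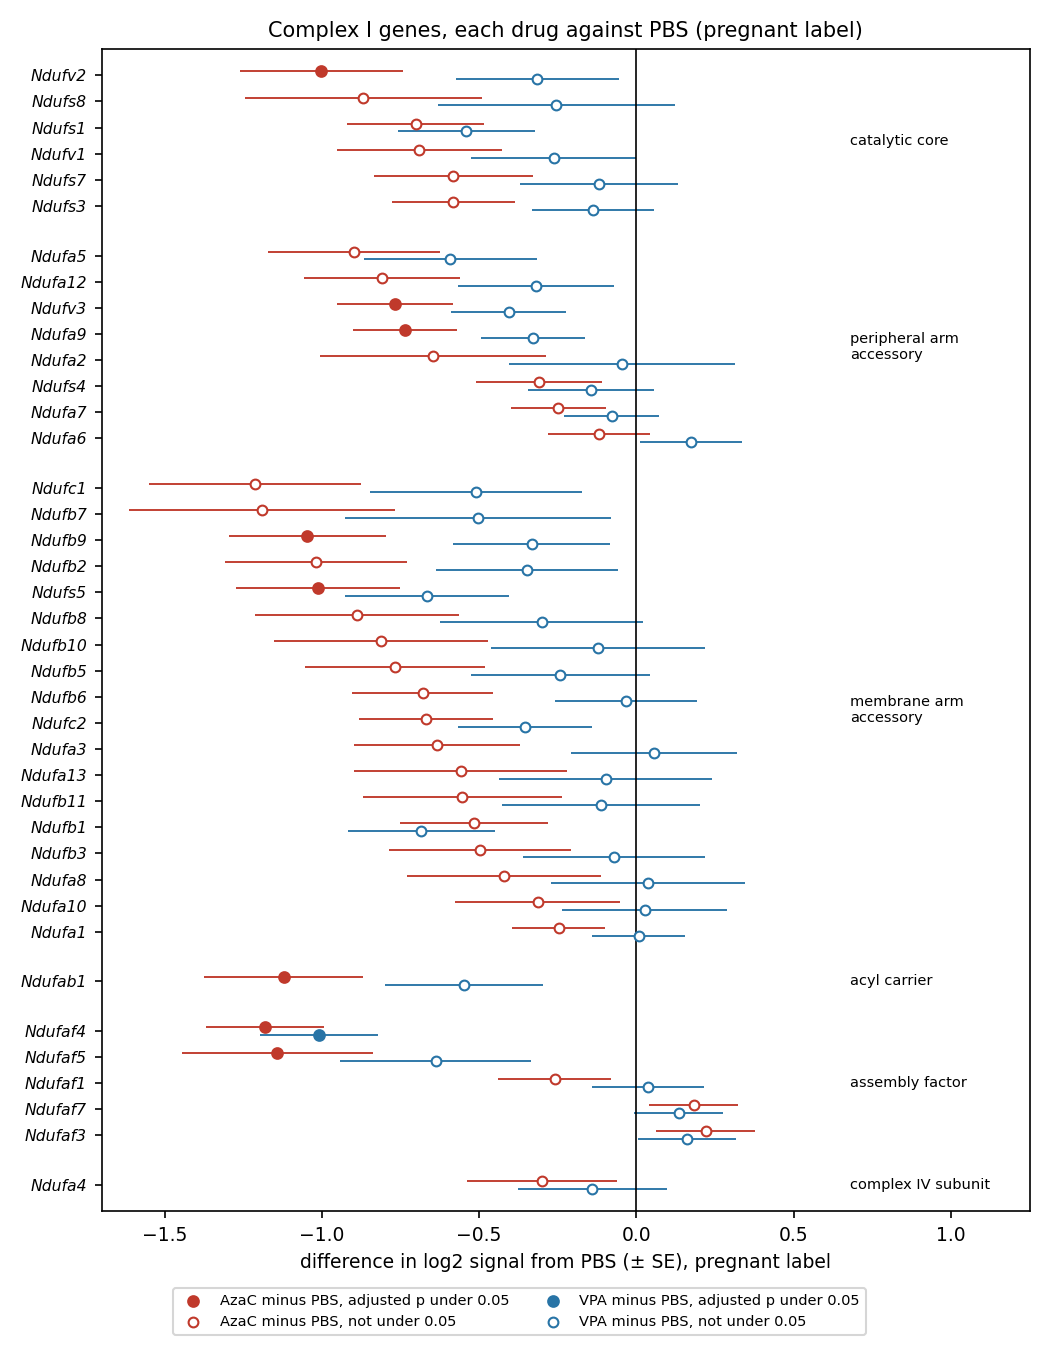
Difference in log2 signal from PBS under the pregnant label for each of the 39 genes, with AzaC in red and VPA in blue, grouped by role. Bars are ± 1 SE and filled points have a limma adjusted p under 0.05; 8 AzaC points and 1 VPA point, that of Ndufaf4, are filled.

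Set directly against VPA, AzaC arrays labelled pregnant were lower for 36 of 39 members, with a median difference of -0.44 (all genes -0.03). None passed adjustment, as was true of all genes (0%), while 11 were lower at an unadjusted p under 0.05 (2.9% of all genes) and 15 without overlap (5.54% of all genes). The 15 included Ndufv2, Ndufs3, Ndufa9, Ndufab1, Ndufb9 and Ndufc1. Without VPA replicate 1 the median difference was -0.63, and without VPA replicate 3 it was -0.29. Ndufaf4 differed little between the drugs, by -0.17, and Ndufaf4, Ndufaf5, Ndufs5 and Ndufv3 overlapped.

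In arrays labelled virgin neither drug moved a complex I gene past the threshold. With AzaC, 18 of 39 members had negative changes, the median was 0.02 (all genes 0.06; -0.12 after quantile normalization), and no member passed with adjustment (0% of all genes) or without (6.85% of all genes). The estimates ran from -0.46 for Ndufb1 to 0.33 for Ndufs5. With VPA, 35 of 39 had positive changes, with a median of 0.22 (all genes 0.05). None passed adjustment (0.00807% of all genes) and 3 were higher at an unadjusted p under 0.05 (3.65% of all genes). Without overlap 8 were higher, or 20.5% of members, which is near the 20.8% of all genes. Ndufv2, Ndufab1 and Ndufaf4 were among the 8. Each of these 3 has another probe set that went the other way: -0.43 and -0.40 for Ndufv2, -0.16 for Ndufab1 and -0.18 for Ndufaf4. A dim probe set of Ndufab1 differed by 0.61. Ndufv2 read 10.66 and 11.35 with PBS and 11.58 and 11.73 with VPA, the largest estimate at 0.65. With AzaC the probe set used for Ndufv2 differed by 0.16 under the virgin label, while its other probe sets differed by -0.97 and -0.95. The lowest was that of Ndufa10 (-0.30), at 10.21 and 10.98 with PBS and 10.08 and 10.51 with VPA. AzaC against VPA gave a median of -0.23 (all genes 0.02) with no member past adjustment (0% of all genes), 1 at an unadjusted p under 0.05 (6.56% of all genes) and 17 lower without overlap (13.7% of all genes).

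The virgin PBS pair was the least even group for these genes. Replicate 2 was above replicate 1 for 34 of 39 members, by a median of 0.77 (all genes 0.03), and the means over members were 10.31 and 10.95. Ndufb7, a membrane arm subunit, read 11.01 and 12.52. Replicate 2 is the array with the largest Gapdh difference of all, 1.23 against -0.06 on replicate 1. The part of that difference in this unevenness was not tested, though other fits took it as a covariate or left replicate 2 out. The virgin comparisons with PBS turn on this pair: without replicate 1 the median change was -0.29 with AzaC and -0.12 with VPA, and without replicate 2 it was 0.33 and 0.63. The 3 virgin AzaC arrays, in comparison, had means of 10.65, 10.63 and 10.62.

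**Figure D4:**
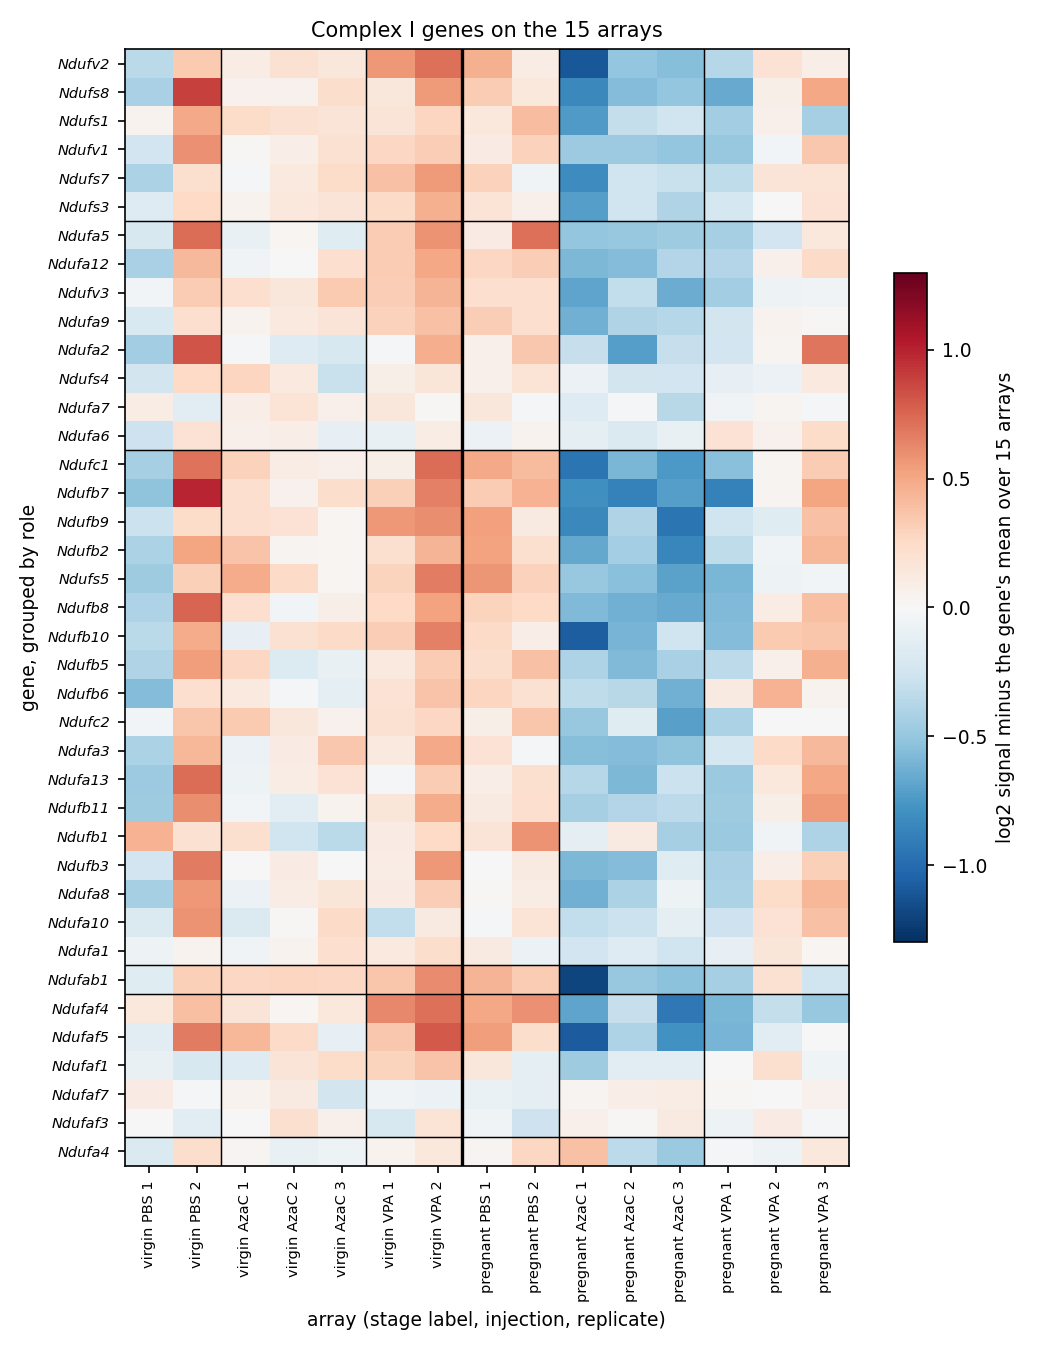
Log2 signal of each of the 39 genes on the 15 arrays after subtracting the gene's mean over all arrays, with genes grouped by role and arrays by stage label and injection. Blue is below and red above the mean; pregnant AzaC arrays are blue for most genes, and virgin PBS replicate 1 and pregnant VPA replicate 1 are bluer than the other arrays of their groups.

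The stage labels were compared within each injection. With PBS, 34 of 39 members were higher under the pregnant label, but the median was only 0.10 (all genes 0.03; -0.00 after quantile normalization) and none passed with adjustment (0.00807% of all genes) or without (4.2% of all genes). This median was -0.15 without virgin PBS replicate 1 and 0.50 without replicate 2. With AzaC, 38 of 39 were lower under the pregnant label, with a median of -0.57 (all genes 0.02), and 30 lay lower without overlap (14% of all genes). Ndufv3 fell, from 12.73, 12.66 and 12.85 under the virgin label to the 11.83, 12.19 and 11.87 given above, a change of -0.78 ± 0.16 (SE; limma adjusted p = 0.0473). It was the only member past adjustment (1.11% of all genes), while 23 were lower at an unadjusted p under 0.05 (10.5% of all genes). The call on Ndufv3 ended without AzaC replicate 1 or 3 of the pregnant label or without any 1 of the virgin AzaC arrays. Leaving out pregnant AzaC replicate 2 gave 4 called members.

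With VPA, 35 of 39 members were lower under the pregnant label, with a median of -0.37 (all genes 0.06), 10 at an unadjusted p under 0.05 (10.6% of all genes) and 16 without overlap (19.8% of all genes). Ndufaf4 fell, and was again the only one past adjustment (2.56% of members, near the 2.96% of all genes that fell). It read 9.94 and 10.03 under the virgin label against 8.72, 9.00 and 8.82 under the pregnant label, a change of -1.14 ± 0.19 (SE; limma adjusted p = 0.0148). The nearest arrays of the groups were 0.94 apart. Leaving out either virgin VPA array ended this call, and without pregnant VPA replicate 1 the median was -0.14.

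Whether a drug's effect differed between the stage labels was tested as the difference of the changes. For AzaC 37 of 39 members had a more negative change under the pregnant label, with a median difference of -0.69 (all genes 0.00). None passed adjustment (0% of all genes), and 15 had an unadjusted p under 0.05 in this direction (8.17% of all genes). The smallest adjusted p was that of Ndufaf4, 0.174, for a difference of -1.03 ± 0.27 (SE, limma). For VPA the median difference was -0.45 (all genes 0.05), 35 of 39 were negative, none passed (0.315% of all genes) and 7 had an unadjusted p under 0.05 (9.01% of all genes). Ndufaf4 came nearest with -1.42 ± 0.28 (SE; limma adjusted p = 0.0583). No single member passed this test. Without virgin PBS replicate 2 the AzaC median was -1.03, and without replicate 1 it was -0.37.

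Other genes of respiration were read from lists of complexes III to V, assembly genes, regulators and general mitochondrial genes. Of 43 genes of complexes III to V, 7 fell and none rose after AzaC under the pregnant label, with a median of -0.56, where 3.81% of all genes fell. Examples are Atp5g1, which encodes the c subunit of ATP synthase (-1.41, limma adjusted p = 0.0115), and cytochrome c, Cycs (-1.19, adjusted p = 0.0348). With VPA the median was -0.24, and 1 of the 43 fell, Atp5g1 (-0.97, adjusted p = 0.0360), a share near the 2.34% of all genes. Cox7a2l, a supercomplex factor, rose with VPA (1.00, adjusted p = 0.0304), as did 3.64% of all genes. Of 11 measured complex I assembly genes with other names, Ecsit and Tmem126a fell after AzaC (-0.90 and -0.83) and Lyrm2 rose with either drug (0.86 with AzaC and 1.09 with VPA). Both genes that fell act in the assembly of the membrane arm. Among 10 genes of other routes of electrons to ubiquinone, Dhodh (-1.45) and the complex II subunit Sdhb (-1.02) fell after AzaC, and the list's median was -0.04. Dhodh also fell after VPA (-1.44, adjusted p = 0.0311), where the list's median was 0.25. The falls after AzaC were thus 2 of 11 assembly genes and 2 of 10 electron-entry genes, beside 3.81% of all genes. Lyrm2 was 1 of 11 in each comparison, where 3.76% of all genes rose with AzaC and 3.64% with VPA. Dhodh was 1 of 10 after VPA, where 2.34% of all genes fell.

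Of 12 genes that report mitochondrial content, 1 fell after AzaC (3.81% of all genes) and after VPA (2.34% of all genes): Tomm40, the import channel of the outer membrane, by 1.16 and 1.19. The median of these 12 was -0.68 with AzaC and -0.26 with VPA, close to the medians of the complex I members. None of 16 regulators of respiratory genes passed in either comparison, with medians of -0.05 and -0.12. With AzaC they ran from -0.83 to 0.84. Of the factors whose motifs were searched, Nrf1 differed by 0.05, Esrra by 0.02, Gabpa by 0.50 and Yy1 by 0.39, and the coactivator Ppargc1a differed by -0.19.

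Mean marker levels of several cell types differed between AzaC and PBS under the pregnant label, and 2 single markers passed the test. Of all genes, 3.76% rose and 3.81% fell with AzaC, and 3.64% rose with VPA. In bulk samples, fewer cells of a type and less RNA per cell cannot be told apart. The mean of 6 endothelial markers ranged from 6.94 to 7.65 with PBS and from 7.93 to 8.77 with AzaC, and 1 of 6, Cldn5, rose. The 6 macrophage markers ran from 8.77 to 9.01 and from 9.36 to 9.62, the 8 luminal markers from 12.16 to 12.21 and from 12.81 to 13.22, and the 6 fibroblast markers from 9.87 to 10.06 and from 10.30 to 11.14, with no gene of these lists past the threshold. Basal epithelial markers had a median change of 0.02, adipocyte markers 0.43, lymphocyte markers -0.19 and the 2 measured erythroid markers -1.05, none passing. Brown fat, a tissue rich in mitochondria, was represented by Ucp1, Cidea and Dio2, with means of 9.45 to 9.60 with PBS and 8.35 to 9.06 with AzaC, and 1 of 3, Cidea, fell. The 6 skeletal muscle markers, from another tissue rich in mitochondria, ran from 11.39 to 12.85 with PBS and from 11.71 to 13.41 with AzaC, and none passed. With VPA the ranges were 7.95 to 8.69 for endothelial (Cldn5 rose), 10.51 to 11.52 for fibroblast (Dcn rose), 12.96 to 13.19 for luminal (Cdh1 rose), 9.43 to 9.83 for macrophage, 13.04 to 13.26 for muscle and 8.95 to 9.92 for brown fat markers. In the VPA stage difference the fibroblast markers had a median of 1.43, and Col1a2 and Col3a1 rose, as did 458 of all 12393 genes. None of these markers was at 0 on any pregnant array, and their part in the complex I results with AzaC or VPA was not tested. With the Gapdh difference as a covariate the AzaC median was -0.69 and 17 members fell, and without the 3 arrays where that difference was largest the median was -0.65 and 1 member fell. Shares of all genes were not counted in these fits.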

How the data were processed

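The deposited table holds the authors' processed Affymetrix values for 22690 probe sets on 15 arrays. They were taken as log2 signals because they run from 0 to 14.48; the base of the logarithm, summary, background correction and normalization are not given in the sources used here, and the deposited log2 values were used unchanged. Of the probe sets, 20380 have 1 symbol in the platform annotation, 691 several and 1555 none, and 64 controls were left out. Using limma 3.58.1 (R 4.3.3), lmFit estimated 6 group means from the 15 arrays together and eBayes moderated the variances (9 residual and 2.31 prior degrees of freedom). Tests were two-sided and adjusted by Benjamini-Hochberg over 12393 genes, with a threshold of 0.05. The fit was also run on simulated data in which genes varied independently, so that run cannot vouch for counts over genes that move together. Figures were drawn with matplotlib 3.10.9.

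Members, gene lists and alternatives were chosen with earlier results of these data known. Named genes were the members past the threshold in a comparison, the core subunits, and the members with the highest and lowest changes, with other members added after their values were seen. Motifs were matched by letters in RefSeq promoter windows. Replicate numbers were not treated as pairs in the main fit. Alternatives were quantile normalization, leaving out genes under the 40th percentile, the mean of all probe sets, leaving out x_at probe sets, trend and robust eBayes, only the arrays compared, the replicate block, a floor at 5, the Gapdh difference as a covariate or as a reason to leave out 3 arrays, and each array left out in turn.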

Additional observations from a re-analysis of the deposited data

How the results depend on the processing

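The number of complex I members past the threshold depended on the setting, while their median change in each drug comparison of the pregnant label kept its sign in all 10 other settings and in every fit without 1 array. For AzaC against PBS under the pregnant label, 14 members passed when genes under the 40th percentile were left out, 17 with the Gapdh difference as a covariate, 1 without the 3 arrays where it was highest and 0 with only the arrays compared. Leaving out single arrays gave 0 to 8. For VPA 0 passed with only the arrays compared and 0 without those 3 arrays (0 to 1 without single arrays). For the AzaC stage difference, where 1 passed, the count was 0 after quantile normalization (median -0.46), with only the arrays compared, without the 3 arrays and with the replicate block, 6 without dim genes, 3 with trend and robust settings, 4 with a floor at 5 and 5 with the Gapdh covariate (0 to 4 without single arrays). For the VPA stage difference 2 passed with the Gapdh covariate (0 to 1 without single arrays). For the stage dependence of VPA 1 passed without dim genes, 1 with trend and robust settings and 1 with a floor at 5. The cause of these shifts was not tested, except that fewer arrays were fitted in some. Shares of all genes past the threshold were not counted in the alternative settings or without single arrays. The member counts thus cannot be set beside such a share. Medians of the virgin comparisons with PBS and of the stage difference with PBS changed sign without virgin PBS replicate 1, and the virgin AzaC median was -0.03 without virgin AzaC replicate 1.

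With the replicate block, 6 members fell after AzaC under the pregnant label: Ndufb9 (adjusted p = 0.0645), Ndufs5 (0.0755) and Ndufaf5 (0.0657) missed the threshold, as did Ndufv3 in the AzaC stage difference (0.0572). Deviations of same-numbered arrays from their group means correlated at -0.174 to 0.333 over 33 pairs, 6 of them over 0.1. Arrays with different numbers were not correlated for comparison, so these values cannot settle whether the numbers pair the arrays.

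Single calls for AzaC against PBS under the pregnant label also ended after quantile normalization (Ndufb9 0.0601, Ndufv3 0.0656), with the mean of all probe sets (Ndufab1 0.0975, Ndufb9 0.441, Ndufv2 0.0575) and with a floor at 5 (Ndufaf5 0.0507). Calls were also gained by named members that had not passed. Ndufs1 (0.0460) and Ndufc1 (0.0422) passed after quantile normalization, and Ndufs1 (0.0374) and Ndufc1 (0.0219) without dim genes. Ndufs8 (0.0475) and Ndufv1 (0.0394) passed without x_at probe sets. Ndufc1 passed with trend and robust settings (0.0270), and Ndufv1 (0.0276) and Ndufc1 (0.0224) with the Gapdh covariate. These values are limma adjusted p.

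Sign changes occurred in differences that never passed. For VPA against PBS under the pregnant label, Ndufa10 was -0.14 after quantile normalization, -0.075 with the mean of all probe sets, -0.077 with the block and -0.12 without the 3 arrays. With the mean of all probe sets Ndufb9 was 0.29 and Ndufs4 0.08 there, and in the VPA stage difference Ndufb9 was 0.35, Ndufa10 -0.11 and Ndufs4 0.17. After quantile normalization Ndufa4 was 0.050 in the AzaC and Ndufaf3 -0.11 in the VPA stage difference, and with the Gapdh covariate Ndufb1 was 0.0074 in the AzaC one. Without single arrays, Ndufs7 ranged from -0.29 to 0.057, Ndufs8 from -0.52 to 0.06 and Ndufa10 from -0.12 to 0.21 for VPA against PBS, Ndufa4 from -0.37 to 0.067, Ndufb1 from -0.14 to 0.16 and Ndufaf3 from -0.07 to 0.03 in the AzaC stage difference, and Ndufaf3 from -0.17 to 0.21 and Ndufa10 from -0.013 to 0.42 in the VPA one.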

Other observations

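Some complex I genes could be read only from probe sets that the annotation gives to several symbols, so they are not among the members. For Ndufs6, an accessory subunit of the peripheral arm that shares its probe set with Ndufs6b, the signal under the pregnant label was 11.19 ± 0.04 (SD, n = 2) with PBS, after AzaC 10.18 ± 0.25 (SD, n = 3) and after VPA 10.67 ± 0.44 (SD, n = 3). For Ndufa11, a membrane arm subunit that shares its probe set with Ndufa11b, it was 10.71 ± 0.09 (SD, n = 2), 9.60 ± 0.20 (SD, n = 3) and 10.31 ± 0.28 (SD, n = 3). The 2 probe sets of Ndufb4, Ndufb4b and Ndufb4c differed from PBS by -0.42 and -0.68 with AzaC. Under the virgin label the Ndufs6 and Ndufs6b probe set with PBS read 11.08 ± 0.74 (SD, n = 2), and with AzaC 10.94 ± 0.18 (SD, n = 3). These probe sets were not tested, and signals of the gene copies that share them cannot be told apart.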
